A study of Mus musculus with 2 samples.

Results

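Nuclear receptors are transcription factors that bind DNA directly, and many of them are switched on by small lipophilic molecules such as steroid and thyroid hormones, retinoic acid, bile acids and fatty acids. A typical member holds a zinc finger domain that recognizes short hexamers of DNA and a pocket that takes up the ligand. Members without a known natural ligand are called orphan receptors. In the small intestine the family is known for control of enterocyte identity, nutrient handling and the response to foreign compounds. The 30 receptors described here are a list of family members chosen by gene symbol, without use of any signal or ratio. Earlier results of these data were known when the list was drawn up. PPAR, RXR, LXR, FXR, SHP, vitamin D, clock and glucocorticoid receptors were left out, and Hnf4a and the androgen receptor are not in the list. The array annotation gave 29 of the 30 a probeset of their own, 77 probesets in all, out of 18193 genes and 45037 probesets. Nr2e3, a photoreceptor regulator, has no value here.

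Both groups were male C57BL/6J mice, an inbred wild type strain, 4 months old and kept for 4 weeks on semisynthetic diets with 20% fat by weight. The control diet took its fat from flaxseed oil alone, which is rich in the n-3 fatty acid ALA. In the EPA&DHA diet, 44% of that lipid was exchanged for a marine concentrate with 6% EPA and 51% DHA. Of 12 mice per diet, RNA of 10 control and 11 EPA&DHA mice was pooled, and each pool was read by 1 Affymetrix array. The arrays therefore have no replicates, and no p-value, standard error or test was computed. A pool also hides how far mice differed, and in tissue RNA fewer cells of a type and less RNA per cell cannot be told apart.

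Each value is a MAS5 signal in arbitrary units, and a ratio is EPA&DHA over control. A probeset was kept when the geometric mean of its signals was at least 50. This held for 24461 probesets, with a median log2 ratio of -0.04. As a measure of scatter, the local SD is the robust SD of the log2 ratios of the 500 kept probesets nearest in signal. Signals of different probesets depend on their probes and do not rank genes by abundance. The methods describe scraped epithelium and the labels complete small intestine. Enterocyte markers were kept for 12 of 13 genes, with summed signals of 434959 on control and 371491 on EPA&DHA. Of the smooth muscle and fibroblast markers 10 of 13 were kept, with summed signals of 2986 and 2514.

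Of the 77 receptor probesets, 46 were kept, and they stood for 19 genes. Most ratios were close to 1. The median log2 ratio was -0.02 over the 19 genes, each read by its brightest kept probeset, against -0.05 over all 11756 genes. Ratios of 17 of the 19 genes lay within 0.5 on the log2 scale, and 33 of the 46 probesets lay within 1 local SD of 0. The same counts were not made for all genes or all kept probesets, so they do not set the receptors apart. At least 1.5-fold higher on EPA&DHA were 3 of the 46 kept receptor probesets, where the share among all kept probesets was 8.11%. At least 1.5-fold lower were 4, with a share of 9.01% among all. At 2-fold, 0 were higher and 2 lower, against 2.31% and 2.63%. In either direction, 15.2% of the receptor probesets were past 1.5-fold, against 17.1% of all. More than 2 local SDs from 0 were 4 of the 46, against 7.66% of all kept probesets. These were 2 of Hnf4g, 1 of Nr2f6 and 1 of Nr6a1.

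**Figure D1:**
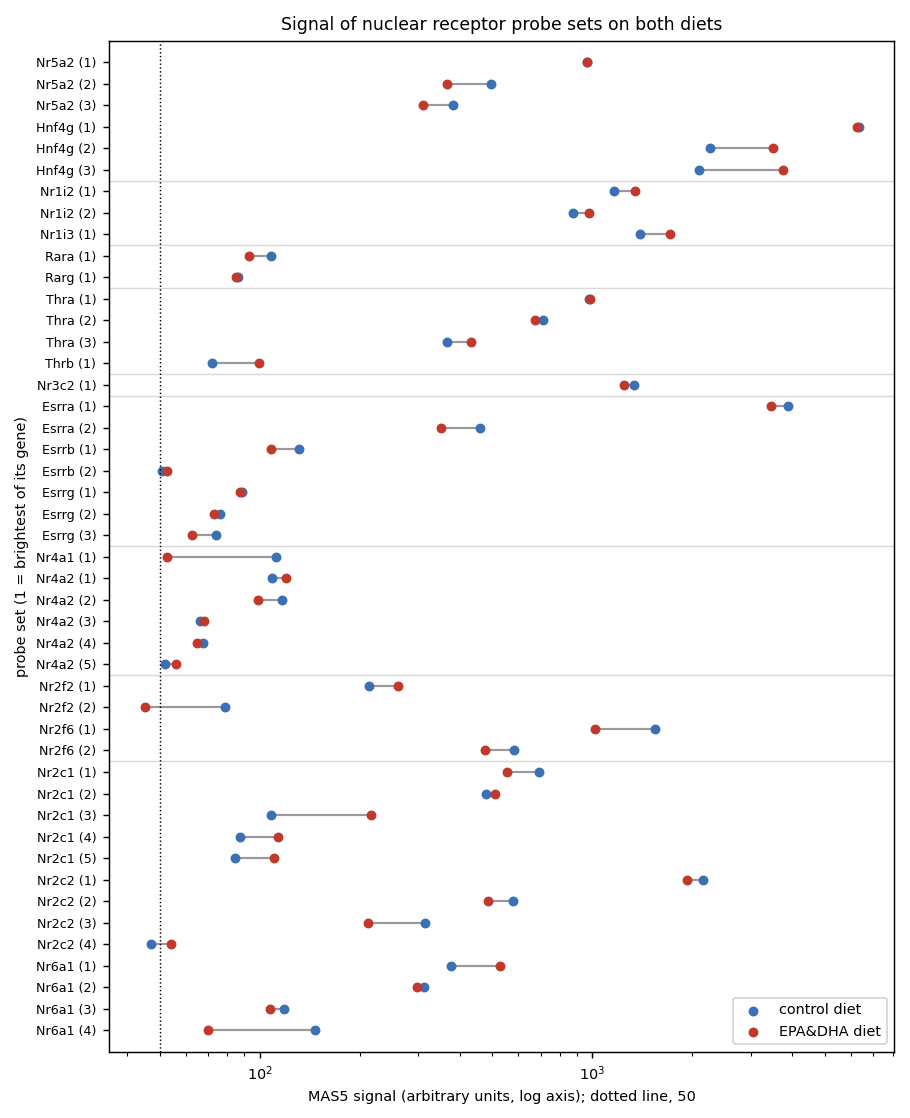
Signal of the 46 kept receptor probesets (rows, brightest of each gene first) on the control diet (blue) and on EPA&DHA (red), on a log axis in arbitrary units, with grey lines that join the arrays and divide receptor groups. The widest gaps among signals over 1000 belong to 2 probesets of Hnf4g, which were higher on EPA&DHA, while the brightest probeset of Hnf4g read 6329.7 and 6257.

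Receptor ratios past 1.5-fold were spread unevenly over the signal range. Among kept probesets with a mean signal from 50 to 200, 4 of 21 receptor probesets were at least 1.5-fold apart in either direction, against 30.2% of all. From 200 to 1000 it was 0 of 16, against 10.4% of all. At 1000 and over it was 3 of 9, against 5.85%, and these 3 came from only 2 genes, Hnf4g and Nr2f6. The levels of 200 and 1000 were set after the values had been seen.

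**Figure D2:**
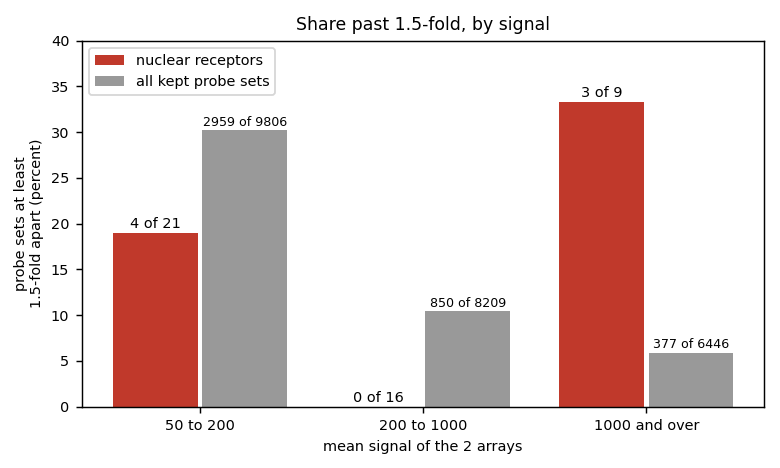
Share of kept probesets at least 1.5-fold apart between the diets (y axis, percent) in 3 ranges of mean signal (x axis), for nuclear receptors (red) and all kept probesets (grey), with counts on the bars. At a signal of 1000 and over, 3 of 9 receptor probesets were past 1.5-fold, against 377 of 6446 in all.

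Hnf4g encodes HNF4γ, which together with HNF4α maintains the gene program of enterocytes. Its 3 probesets did not give the same ratio. The brightest had a signal of 6329.7 on control and 6257 on EPA&DHA, a ratio of 0.989. The next read 2267 on control and 3504 on EPA&DHA, which is 1.55-fold higher. The dimmest of the 3 read 2094 and 3748, 1.79-fold higher. The log2 ratios of the last 2 were 0.63 and 0.84, beside local SDs of 0.25 and 0.25, and that of the brightest was -0.02. A single ratio for Hnf4g cannot be given. The annotation used here does not place the probesets on the transcripts, so which part of the mRNA each one reads is not known. By the rule of the brightest probeset, Hnf4g counts among the genes within 1.5-fold. Under other scalings of the arrays the log2 ratio of the brightest probeset ran from -0.04 to 0.02, and that of the dimmest from 0.82 to 0.88.

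Genes that HNF4 factors are known to control in the epithelium were read as a list. Of 13 genes, all were kept, 0 were at least 1.5-fold higher, 0 were lower, and 10 had a log2 ratio below 0. Among all genes 6.24% were at least 1.5-fold higher and 8.02% lower. Of all genes with a mean signal of 1000 or more, 40.6% lay above 0. The list had a median of -0.21, compared with -0.05 for all genes with a mean signal of 1000 or more. Control signals of the list ran from 10340.6 for Treh to 63898 for Apoa1, so the 2 sets are not matched in signal. Of the 13, 6 also stand in the list of absorptive enterocyte markers, whose 12 kept genes all lay below 0 with a median of -0.19. After quantile normalization the medians were -0.03 for the HNF4 targets and -0.01 for the enterocyte markers. With the median of kept probesets centred on 0 they were -0.17 and -0.15. After loess they were -0.18 and -0.17, and with an offset of 50 they were -0.21 and -0.19. The part of enterocyte content, or of a shift tied to signal level, in the HNF4 values was not tested.

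Nr5a2 encodes LRH-1, a receptor for phospholipids that acts in crypt renewal, in local glucocorticoid synthesis and in the exocrine pancreas. Its brightest probeset read 962 on control and 964 on EPA&DHA, a ratio of 1.00. The others read 495 and 367, at -0.43 on the log2 scale, and 381 and 309, at -0.30. The probeset at -0.30 is of a type that can also bind other transcripts. All 3 lay within 1.5-fold. A further probeset was too dim to keep, at 5.88 and 11.9. Exocrine pancreas markers moved far more, with 10 of 11 kept genes at least 1.5-fold higher, against 6.24% of all genes. Their summed signal was 7487 on control and 18547.5 on EPA&DHA. The widest ratios of that list were 6.47 for the carboxypeptidase Cpb1, 5.59 for the chymotrypsinogen Ctrb1, 3.86 for the trypsinogen Prss2, 3.86 for Cel, 3.82 for the elastase Cela3b and 2.42 for the carboxypeptidase Cpa1. Of the same list, Ptf1a was in the table but was too dim to be kept. The part of pancreatic RNA in the Nr5a2 signal was not tested. Nr5a1 (SF-1), the steroidogenic paralogue of the adrenal and gonad, had signals from 7.52 to 65.4 and was not kept.

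Of 13 genes known as LRH-1 targets, 10 were kept, with a median log2 ratio of -0.17. At least 1.5-fold higher were 2, and 1 was lower, beside 6.24% and 8.02% of all genes. The higher ones were Cel, the bile salt lipase, at 216 and 834, and Scarb1, the receptor for high density lipoprotein, at 289 and 666 on a probeset that may also bind related sequences. Cel is also a pancreatic marker. The lower one was Cyp11a1, which opens steroid synthesis, with dim signals of 75.9 and 40.2. The bile acid enzymes Cyp7a1 and Cyp8b1 of liver were not kept.

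The xenobiotic receptors PXR (Nr1i2) and CAR (Nr1i3) sense drugs, bile acids and other foreign or toxic compounds and raise the enzymes that clear them. Nr1i2 read 1166 on control and 1348 on EPA&DHA on its brighter probeset, and 877 and 979.5 on the other. Nr1i3 read 1393 and 1714 on its only probeset. All 3 probesets were higher on EPA&DHA, by ratios of 1.16, 1.12 and 1.23. None reached 1.5-fold, which on the log2 scale is 0.21, 0.16 and 0.30 beside local SDs of 0.26, 0.26 and 0.24. Nr1i3 was thus 1.22 local SDs above 0. The probesets of Nr1i2 differed by 0.05 on the log2 scale, the narrowest range among the 13 receptor genes with more than 1 kept probeset.

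The list of PXR and CAR targets had the highest median of the 12 lists of targets, partners and relatives. Of 23 genes, 19 were kept, 3 were at least 1.5-fold higher, 0 were lower and 17 had a log2 ratio above 0. Of all genes with a mean signal of 1000 or more, 40.6% lay above 0, with a median of -0.05. The median of the list was 0.39. The 3 genes past 1.5-fold were Abcb1a, the efflux pump P-glycoprotein, at 8577 and 18065, the retinaldehyde dehydrogenase Aldh1a1 at 13084 and 23120, and its relative Aldh1a7 at 5275 and 8951. Their ratios were 2.11, 1.77 and 1.70. Cyp3a11 and Cyp2b10, the textbook targets of PXR and CAR, were looked up by name after the values had been seen. Cyp3a11 was 1.21-fold higher and Cyp2b10 had a ratio of 1.00. Below 0 were Cyp2c55 at -0.43 and the dim Cyp2b9 at -0.24. The list was drawn up with earlier results of these arrays known, which makes it no independent evidence of a direction.

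**Figure D3:**
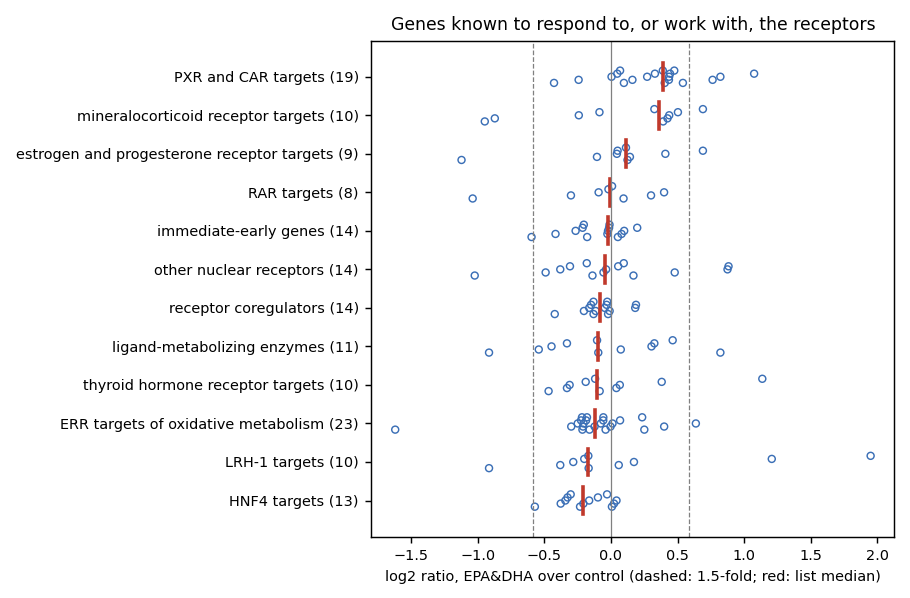
Each kept gene by its log2 ratio between the diets, positive where EPA&DHA was higher (x axis, blue circles), in 12 lists of receptor targets, partners and relatives (rows, number of genes in brackets), with list medians in red and 1.5-fold as dashed lines. With the arrays scaled as deposited, medians run from -0.21 for HNF4 targets to 0.39 for PXR and CAR targets. After quantile normalization they were -0.03 and 0.37, and LRH-1 targets, at -0.18, lay below HNF4 targets.

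Retinoic acid receptors bind DNA with RXR and answer to retinoic acid, which enterocytes make from vitamin A and carotenoids. Rara read 108 on control and 93.2 on EPA&DHA. Rarg read 85.9 and 84.8 on its kept probeset. Both were dim and lay within 1 local SD of 0, with log2 ratios of -0.21 and -0.02. Rarb, itself induced by retinoic acid in many cells, was under the filter at 7.54 and 2.21. Of 15 genes taken as targets of these receptors, 8 were kept. Of these, 0 were at least 1.5-fold higher and 1 lower, beside 6.24% and 8.02% of all genes. The lower one was Bco1, which splits β-carotene, with signals of 272 and 132. Its log2 ratio was -1.04 beside a local SD of 0.42. The median of the list was -0.01.

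Thra encodes TRα, the main thyroid hormone receptor of the intestinal epithelium. Its 3 probesets read 976 and 986, 710.2 and 671, and 365 and 433. Their log2 ratios of 0.02, -0.08 and 0.25 were all within 1 local SD. Thrb, the form that prevails in liver, read 72.0 and 99.7, a ratio of 1.38 where the local SD of log2 ratios was 0.66. Of 10 kept thyroid hormone targets, 1 was at least 1.5-fold higher and 0 were lower, beside 6.24% and 8.02% of all genes. The median of the list was -0.10. The higher one was Me1, the malic enzyme, at 4047 and 8894. Me1 is also a known target of PPARα.

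Among the steroid receptors, only Nr3c2 had a kept probeset. It encodes the mineralocorticoid receptor, through which aldosterone raises sodium uptake, mainly in colon and kidney. Its signals were 1333 on control and 1242 on EPA&DHA, which gives -0.10 on the log2 scale beside a local SD of 0.25. The estrogen receptors Esr1 and Esr2 and the progesterone receptor Pgr had signals from 3.03 to 41.4 on 7 probesets, all under the filter. Of 10 kept mineralocorticoid targets, 1 was at least 1.5-fold higher and 2 were lower, beside 6.24% and 8.02% of all genes. The median of the list was 0.36. Fkbp5, a chaperone that also answers to glucocorticoids, was the higher one at 496 and 800.3. The lower ones were Slc9a3, a brush border sodium/proton exchanger, at 7465 and 4079, and Zbtb16, a zinc finger repressor, at 129 and 67.1. Among 9 kept estrogen and progesterone targets, Fkbp5 was again the only one higher. Cxcl12, a chemokine, was the only one lower, at 163 and 74.9.

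The estrogen-related receptors are orphans that drive mitochondrial genes together with the coactivators PGC-1α and PGC-1β. Esrra read 3868 on control and 3459 on EPA&DHA on its brighter probeset, and 461 and 351 on the other. The log2 ratios were -0.16 and -0.39, so both were lower, and the second stood at -1.26 local SDs. Esrrb read 132 and 108 on a probeset that may also bind related sequences, and 50.8 and 52.7 on another. The 3 probesets of Esrrg were dim, from 62.7 to 88.3, with log2 ratios from -0.23 to -0.01. None of the 7 kept probesets of this subfamily was past 1.5-fold. The 23 kept genes taken as targets were mainly of oxidative metabolism and included Esrra itself. Of these, 1 was at least 1.5-fold higher and 1 lower, beside 6.24% and 8.02% of all genes. The median of the list was -0.12. Vegfa, the vascular growth factor, was higher at 663 and 1032. Perm1, a muscle regulator that works with these receptors, was lower at 123 and 39.9.

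The NR4A receptors need no ligand and are switched on within minutes to hours by growth factors, stress and cAMP. Nr4a1 (Nur77) had the lowest ratio of the 19 genes. Its signal was 112 on control and 52.7 on EPA&DHA, 2.12-fold lower. The EPA&DHA signal was close to the filter, and its log2 ratio, -1.08, is -1.86 local SDs from 0. With an offset of 50 added to both signals it was -0.66. The promoter of Nr4a1 is shown because it is known to respond to cAMP. The 250 bases before its start hold 4 copies of the core CGTCA of the cAMP response element, in capitals. Either CGTCA or its reverse TGACG occurs in 17.8% of 32851 promoter windows of that length, and in 11 of the 41 windows of the listed receptors. The sequence is from RefSeq, build GRCm38.p6, chr15:101266596-101266845, plus strand.
Nr4a1: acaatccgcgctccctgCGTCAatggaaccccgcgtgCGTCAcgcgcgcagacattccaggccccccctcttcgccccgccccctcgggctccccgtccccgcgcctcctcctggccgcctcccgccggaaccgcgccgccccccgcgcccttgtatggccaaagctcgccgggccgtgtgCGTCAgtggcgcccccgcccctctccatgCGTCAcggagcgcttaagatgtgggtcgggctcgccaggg
Nr4a2 (Nurr1) had 5 kept probesets with signals from 52.1 to 120.2, and its log2 ratios ran from -0.24 to 0.14. Nr4a3 (NOR-1) stayed under the filter, from 4.02 to 33.6. Nr4a1 thus had a lower ratio than its kept paralogue, and whether the 2 differ was not tested.

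Immediate-early genes, which answer to many of the same stimuli as the NR4A receptors, were read as a list. Of 18 genes, 14 were kept, 0 were at least 1.5-fold higher and 1 was lower, beside 6.24% and 8.02% of all genes. Below 0 were 10 of the 14, where 43.5% of all genes lay above 0. The list median was -0.02, and it was 0.01 with the median of kept probesets centred on 0. The lower one was Egr1, an early growth response factor, at 576 and 381, with a log2 ratio of -0.60 beside a local SD of 0.32. Fos, looked up by name after the values had been seen, had a ratio of 0.992 at a signal of 12051 on control.

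The COUP-TF receptors mostly repress and share DNA sites with RAR, HNF4 and PPAR. Nr2f6 (EAR2) was lower on EPA&DHA on both of its probesets. The brighter read 1549 on control and 1018 on EPA&DHA, 1.52-fold lower, and the other read 582 and 475. On the log2 scale the brighter stood at -0.61, or -2.30 local SDs, and the other at -0.29, just within 1 local SD of 0. Nr2f6 lay just past 1.5-fold, and with the median of kept probesets centred on 0, or with an offset of 50, its log2 ratio of -0.57 or -0.58 fell just short. Its promoter is printed as that of the bright receptor with the lowest ratio. It holds neither AGGTCA, the hexamer that many nuclear receptors bind, nor CGTCA, nor the reverse of either, and 82.4% of its bases are G or C. Only these exact letters were searched, and variants of the hexamer were not. AGGTCA or its reverse TGACCT is found in 14.0% of all windows, and in 5 of the 41 windows of the listed receptors, which belong to 27 genes. A match is a description of letters and not of a bound site. The window lies on GRCm38.p6, chr8:71381953-71382202, minus strand.
Nr2f6: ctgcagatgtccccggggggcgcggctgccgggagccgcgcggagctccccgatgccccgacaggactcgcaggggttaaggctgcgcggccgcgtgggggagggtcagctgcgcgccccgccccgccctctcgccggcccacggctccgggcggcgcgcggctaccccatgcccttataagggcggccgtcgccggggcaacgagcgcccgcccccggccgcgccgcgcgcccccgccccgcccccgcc
Nr2f2 (COUP-TFII) marks stromal and endothelial cells and is known for its part in vessel and mesenchyme development. On its brightest probeset it read 213 and 262, 1.23-fold higher. The other kept probeset read 78.5 and 45.1, 1.74-fold lower, with a log2 ratio of -0.80 beside a local SD of 0.66. With an offset of 50 it was -0.43, short of 1.5-fold. The kept probesets of Nr2f2 therefore pointed in opposite directions. Of the 10 kept smooth muscle and fibroblast genes 0 were at least 1.5-fold higher and 1 lower, beside 6.24% and 8.02% of all genes. The lower one was the matrix gene Dcn at 295 and 158. Summed signals of 4 kept endothelial genes were 526 on control and 413 on EPA&DHA. The part of these cell types in the Nr2f2 values was not tested. Nr2f1 (COUP-TFI) was under the filter at 4.08 and 2.71.

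Nr2c1 (TR2) and Nr2c2 (TR4) are orphan receptors that form a dimer and repress genes at repeats of the receptor hexamer. Nr2c1 had 5 kept probesets. The brightest read 689.5 on control and 554 on EPA&DHA, the next 478 and 509, and the third 108 and 216. The last was 2.00-fold higher, just under the 2-fold threshold, with a log2 ratio of 1.00 and 1.99 local SDs. Centring, quantile normalization and loess put it just past 2-fold, at 1.03 each, and an offset of 50 put it at 0.75. The remaining kept probesets of Nr2c1 were dim, at 87.2 and 114 and at 84.1 and 110, with log2 ratios of 0.38 and 0.39. The range of log2 ratios within Nr2c1 was thus 1.31, with the brightest at -0.31 and 4 of the 5 above 0. Nr2c2 read 2152 and 1931, 577 and 486, and 313 and 211 on its 3 brightest probesets, all lower on EPA&DHA. Their log2 ratios were -0.16, -0.25 and -0.57. None of these 3 reached 1.5-fold. The fourth kept probeset of Nr2c2 lay at the filter, with 47.2 and 54.2.

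Nr6a1 (GCNF) represses pluripotency genes in germ cells and early embryos. Its brightest probeset read 375 on control and 527 on EPA&DHA, 1.40-fold higher. This was the largest ratio of the 19 genes with the arrays as deposited, while after quantile normalization Thrb was at 0.55 and Nr6a1 at 0.50 on the log2 scale, and after loess at 0.55 and 0.51. The next read 312 and 298, and the third 118 and 108. The dimmest kept one read 146 and 69.9, 2.10-fold lower and at -2.04 local SDs. With a range of 1.56 the probesets of Nr6a1 differed the most of any receptor. Nr0b1 (DAX-1), a corepressor of Nr5a1 and Nr5a2 without a DNA-binding domain of the usual kind, was under the filter at 21.4 and 18.8. Nr2e1 (TLX), a regulator of neural stem cells, had signals from 1.07 to 14.8. Rorb (RORβ), of retina and brain, had signals from 3.06 to 51.4. The neuronal and glial markers were sparse too, with 4 of 11 genes kept.

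**Figure D4:**
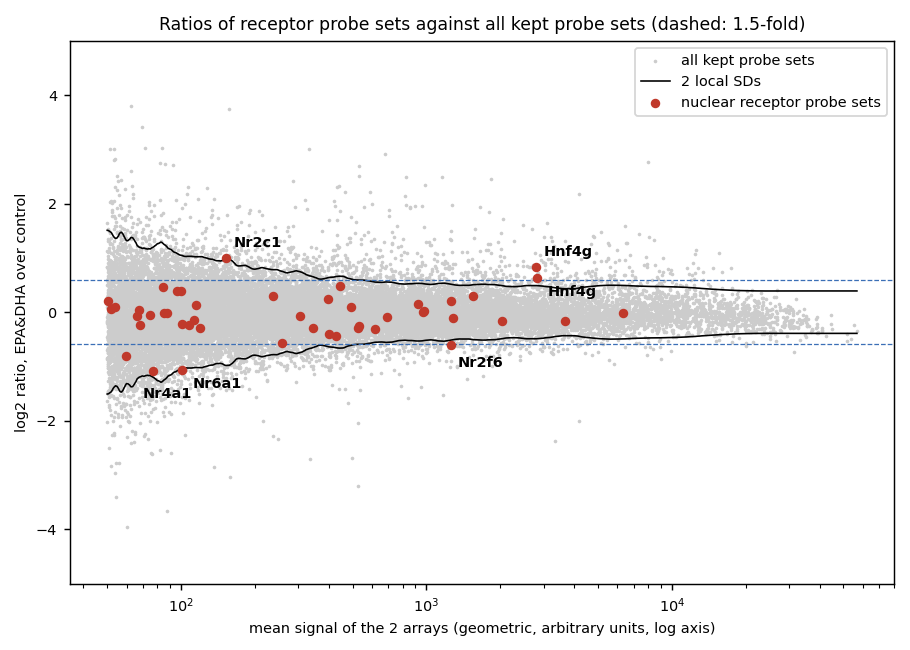
Log2 ratio of EPA&DHA over control (y axis) against mean signal (x axis, log, arbitrary units) for all kept probesets (grey) and the 46 receptor probesets (red), with 2 local SDs as black lines and 1.5-fold as dashed lines. Named probesets lie more than 1.8 local SDs from 0, and above a signal of 1000 only 2 of Hnf4g and 1 of Nr2f6 lie outside the black lines.

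Probesets of the same gene often differed in direction. Of the 13 receptor genes with more than 1 kept probeset, 9 had log2 ratios on both sides of 0, and 4 on the same side. Over 5350 genes of the array with more than 1 kept probeset, 54.4% had them on both sides. The median range within a receptor gene was 0.38, against 0.44 for all such genes. Genes with all kept probesets on the same side were Nr1i2, which was higher, and Esrra, Esrrg and Nr2f6, which were lower. Centred on the median of kept probesets, the brightest and next probesets of Esrrg had log2 ratios of 0.02 and -0.02, and after quantile normalization 0.07 and 0.04.

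The filter itself left out 31 of the 77 receptor probesets, with signals from 1.07 to 65.4. Of the 46 kept, 44 had a signal of at least 50 on both arrays. The other 2 were the second of Nr2f2 and the fourth of Nr2c2, described above. Some of the dim probesets had wide ratios, as in a probeset of Nr2f2 with 59.9 on control and 3.70 on EPA&DHA. A dim one of Nr4a2 read 60.4 and 2.14 beside 5 kept probesets of the same gene close to a ratio of 1. These ratios rest on signals under the filter and were not counted.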

How the data were processed

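The authors pooled small intestinal RNA per diet, hybridized each pool to 1 Affymetrix MOE430_2 array and summarized probes with MAS5. The deposited intensity values are linear signals of 45101 probesets, with a 2% trimmed mean of 500.0 on both arrays, and were used as scaled by the authors. Of these probesets, 64 controls were set aside. Symbols came from the platform annotation, brought up to date by gene identifier; 34945 probesets named 1 gene, 932 several and 9160 none. A gene was read by its brightest kept probeset. Receptors and target or marker lists were chosen from general knowledge with earlier results of these data known. All receptors are described; from other lists, genes at least 1.5-fold apart are named (at most 6 a list by ratio). Log2 ratios were recomputed with median centring, quantile normalization, loess (span 0.3), an offset of 50 and other filters, after a check of the code on simulated data. Promoters are RefSeq windows of GRCm38.p6, the 250 bases before a start. Protein sequences were not used here. Python 3.11.15, numpy 2.4.6, pandas 2.3.3, scipy 1.17.1, statsmodels 0.14.6 and matplotlib 3.10.9 were used. The number of arrays limits the precision, and detection calls were not used here.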

Additional observations from a re-analysis of the deposited data

How the results depend on the processing

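Centring, quantile normalization, loess and the offset moved each log2 ratio of the 46 kept receptor probesets by less than its local SD, and 41 of the 46 kept their sign throughout. Counts moved more. Receptor probesets at least 1.5-fold lower numbered 4, but 2 with an offset of 50, 2 at a mean signal of at least 100, 1 at 200 and 16 with no filter. The share of all kept probesets that were lower moved too, from 9.01% to 4.20%, 5.33%, 3.34% and 23.1%. Those at least 1.5-fold higher went from 3 to 13 with no filter, where 18.7% of all probesets were higher. At 2-fold, 2 lower became 1 after quantile normalization, 0 with the offset and 9 with no filter, and 0 higher became 1, a probeset of Nr2c1, after quantile normalization and 5 with no filter. The same Nr2c1 probeset was also past 2-fold after centring and loess. Nr4a1 fell just short of 2-fold lower after loess too, at -0.996 on the log2 scale, while the Nr6a1 probeset stayed past it at -1.01. Receptor genes at least 1.5-fold lower, Nr2f6 and Nr4a1, went from 2 to 1 with centring, with the offset, at a signal of 100 or of 200 and with averaged probesets, and to 7 with no filter, which also gave 2 higher in place of 0. The median of ligand-metabolizing enzymes went from -0.10 to 0.30 at a signal of at least 100, and that of immune markers from -0.39 to 0.18 at 200. These filters left out dim genes, while the genes that stayed kept their ratios. Other list medians moved by less than the median local SD of their genes. No paired analysis was possible because each diet has 1 pool. Local SDs of receptor probesets ran from 0.21 to 0.75, widest near the filter.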

Other observations

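Receptors act through coregulators. Of 16 coactivators and corepressors, 14 were kept, 0 were at least 1.5-fold higher and 0 lower, beside 6.24% and 8.02% of all genes, and the median log2 ratio was -0.08. Values ran from -0.42 to 0.19, and 12 of the 14 lay below 0, where 43.5% of all genes lay above 0. The enzymes that make or remove receptor ligands were mixed, with 1 of 11 kept genes at least 1.5-fold higher and 1 lower. Aldh1a1, which makes retinoic acid, was 1.77-fold higher, and Cyp11a1, of steroid synthesis, was 1.89-fold lower at dim signals.

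Of the remaining 19 nuclear receptors, left out of the set above, 14 were kept, with a median of -0.05. At least 1.5-fold higher were 2, and 1 was lower, beside 6.24% and 8.02% of all genes. The higher ones were Ppara at 1998 and 3664 and Nr1h4, the bile acid receptor FXR, at 959 and 1768. The lower one was Rora, a receptor tied to the clock, at dim signals of 88.6 and 43.6.

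Markers of other cell types gave these values, where 6.24% of all genes were at least 1.5-fold higher and 8.02% lower. Goblet and enteroendocrine markers had 0 of 11 kept genes past 1.5-fold in either direction and a median of -0.27. Of 9 kept crypt and Paneth markers, 1 was at least 1.5-fold higher, Olfm4, at 3587 and 5903. Of 10 kept immune markers, 1 was higher, the T cell gene Cd3e, at 171 and 261, and 4 were lower. Lower were the mast cell proteases Mcpt1, at 193 and 74.6, and Mcpt2, at 255 and 109. The others were Cd8a of cytotoxic T cells, at 328 and 186, and Cd79a of B cells, at 245 and 150. Of all kept probesets, 30.2% were past 1.5-fold at mean signals from 50 to 200, and 10.4% from 200 to 1000.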
